A study of Homo sapiens with 12 samples.

Results

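The genes described here are MITF and 9 genes of pigment production, DCT, TYRP1, TYR, PMEL, MLANA, SLC45A2, TRPM1, RAB27A and MC1R. They were chosen by name, as the regulator of the melanocyte lineage together with genes that are commonly read as its pigment targets, and make up 10 of the 23273 genes listed for each cell line. The choice was made with earlier results of these data known. RNA was sequenced from COLO858 and MMACSF, established melanoma cell lines that, per the paper, carry an activating BRAF mutation. Each line was grown with the vehicle DMSO, or with 0.2 μM vemurafenib, a RAF inhibitor, for 24 or 48 h, and each of these 6 groups had 2 replicate libraries. The labels gave no time for the DMSO libraries, and the same DMSO pair of a line served for both drug times. The study asked how COLO858 cells adapt to the drug, with MMACSF set against it. The lines were grown in different media and seeded at different densities, and each response was seen in a single line. All levels are FPKM, which divides the fragments of a gene by transcript length and by the mapped total of the library, so that levels of different genes can be set side by side within a library. The tables of the lines were deposited separately and a common scaling was not stated. Levels in COLO858 and in MMACSF are therefore given for orientation, and only changes within a line were compared between lines.

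MITF is a basic helix-loop-helix transcription factor that melanocytes need in order to form, survive and make pigment. It binds E-box sequences, among them the longer M-box in the promoters of TYR, TYRP1 and DCT, and its own melanocyte promoter holds a cAMP response element through which the melanocortin receptor MC1R acts. Its pigment targets make melanin from tyrosine inside melanosomes, organelles that are built on PMEL fibrils and carried to the cell edge by RAB27A.

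The promoters of the 3 melanin enzymes are shown because each held the M-box letters TCATGTG, which link these genes to MITF in their textbook description. They are the 250 bases before the annotated start, from the RefSeq promoter table for GRCh38.p14, on the strand of the gene, with the M-box on either strand in capitals.
DCT, chr13:94479683-94479932, minus strand: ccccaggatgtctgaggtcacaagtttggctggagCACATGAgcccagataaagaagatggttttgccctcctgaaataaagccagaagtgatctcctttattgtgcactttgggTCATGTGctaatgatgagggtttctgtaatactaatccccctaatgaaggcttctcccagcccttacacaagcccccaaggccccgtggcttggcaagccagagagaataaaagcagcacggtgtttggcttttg
TYRP1, chr9:12693135-12693384, plus strand: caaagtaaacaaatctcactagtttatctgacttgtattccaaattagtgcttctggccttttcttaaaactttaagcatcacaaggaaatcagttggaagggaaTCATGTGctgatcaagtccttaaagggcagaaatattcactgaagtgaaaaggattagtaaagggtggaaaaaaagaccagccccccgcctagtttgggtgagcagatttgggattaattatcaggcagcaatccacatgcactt
TYR, chr11:89177625-89177874, plus strand: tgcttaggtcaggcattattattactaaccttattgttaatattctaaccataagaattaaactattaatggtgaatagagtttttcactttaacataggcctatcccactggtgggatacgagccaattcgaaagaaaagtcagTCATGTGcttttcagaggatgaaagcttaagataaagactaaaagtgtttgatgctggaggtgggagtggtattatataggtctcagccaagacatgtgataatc
The M-box began 135 bases before the start in DCT, 145 in TYRP1 and 105 in TYR, and a second copy lay on the opposite strand of the DCT promoter. DCT had 2 promoter entries, and the other entry did not hold the M-box. On either strand, TCATGTG was found in 2.92% of the 35116 promoters of the table, counted from 250 bases before to 50 bases after the start. The shorter E-box CATGTG, which is contained in the M-box, was in 11.1% of them and was also found in the promoters of TRPM1 and MC1R. It was not found in those of MLANA and RAB27A, and the table was matched by 8 of the 10 genes, the other two being PMEL and SLC45A2. The promoter shown for MITF, 1 of its 3 entries, was taken because it alone of them held the palindromic cAMP response element TGACGTCA, in capitals, which was in 1.85% of all promoters and began 152 bases before the start.
MITF, chr3:69936342-69936591, plus strand: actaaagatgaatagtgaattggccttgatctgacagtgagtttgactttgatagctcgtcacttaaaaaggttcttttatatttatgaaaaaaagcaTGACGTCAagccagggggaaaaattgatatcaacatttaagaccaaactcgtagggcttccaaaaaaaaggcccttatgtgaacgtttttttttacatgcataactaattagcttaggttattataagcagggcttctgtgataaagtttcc

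In all 12 libraries between 11679 and 11972 genes reached 1 FPKM, and read depth is unknown because FPKM carries no counts. Of 6 melanocytic markers, 5 reached 1 FPKM in COLO858, with MLANA below it, and all 6 did so in MMACSF. None of 7 markers of blood and endothelium reached 1 FPKM in either line, and of 5 keratinocyte markers only KRT10 did. Of 5 fibroblast markers, 3 reached 1 FPKM in each line, mainly LUM. The summed level of those 5 genes was between 8.32 and 11.3 FPKM in DMSO and between 17.4 and 27.2 at 48 h in COLO858. In MMACSF it was between 57.9 and 79.3 in DMSO and between 20.1 and 29.1 at 48 h, and its part in the results was not tested. Since whole cultures were sequenced, a changed share of pigmented cells and a changed amount of RNA per cell cannot be told apart, for rises and for falls.

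**Figure D1:**
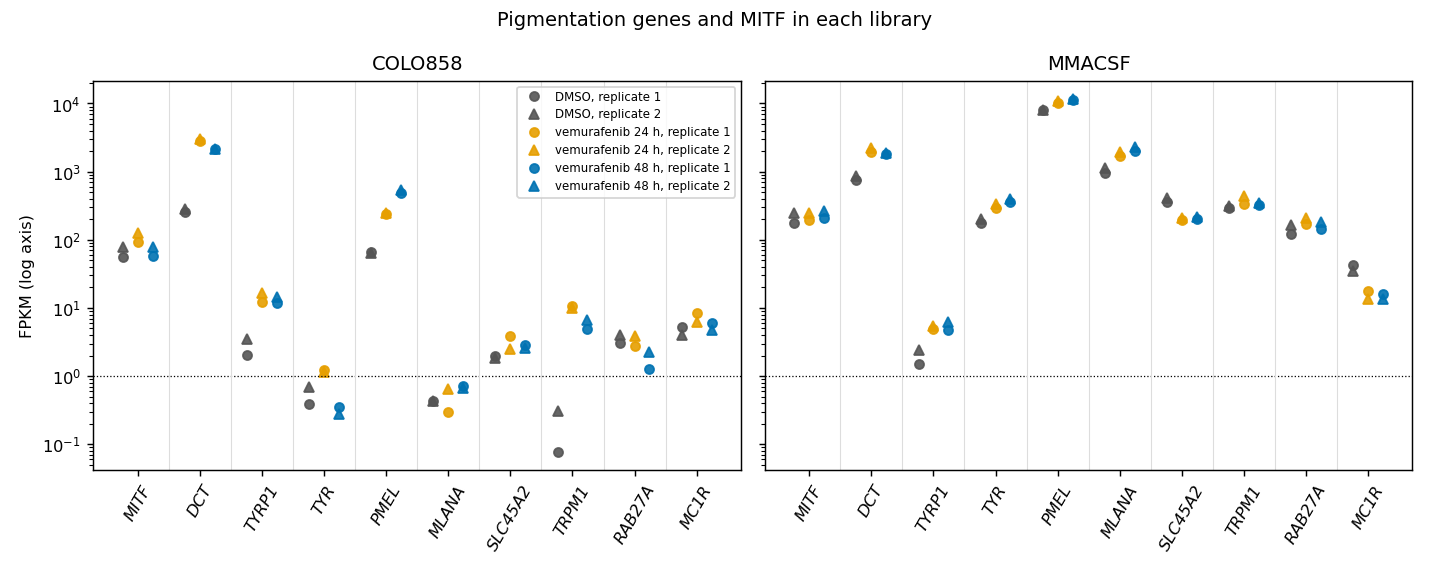
FPKM (log axis) of the 10 genes in each library, COLO858 on the left and MMACSF on the right; circles are replicate 1, triangles replicate 2, grey is DMSO, orange 24 h and blue 48 h of vemurafenib, and the dotted line marks 1 FPKM. DCT, PMEL, TYRP1 and TRPM1 lie above their DMSO points in COLO858, and MC1R and SLC45A2 lie below theirs in MMACSF.

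Under DMSO the genes stood in a different order in each line. In COLO858 the order of mean levels was DCT, MITF, PMEL, MC1R, RAB27A, TYRP1, SLC45A2, TYR, MLANA and TRPM1. The libraries of MITF and PMEL overlapped, as did those of MC1R and RAB27A, of RAB27A and TYRP1, and of TYR and MLANA. DCT stood at 267 ± 21.7 FPKM (SD, n = 2), MITF at 67.7 ± 16.2 and PMEL at 64.6 ± 1.86, while the other 7 genes had means from 0.191 (TRPM1) to 4.60 FPKM (MC1R). In MMACSF PMEL was far ahead at 7944 ± 5.14 FPKM, rank 3 among all genes of the line. MLANA followed at 1044 ± 116 FPKM and DCT at 813 ± 78.6. SLC45A2, TRPM1, MITF, TYR and RAB27A had means from 143 to 378 FPKM, and among neighbours in that order only the libraries of MITF and TYR overlapped. MC1R at 38.8 ± 5.51 FPKM and TYRP1 at 1.96 ± 0.677 came last. The plot of levels by library shows both sets, with 5 of the 10 genes at or below 10 FPKM in every COLO858 library, TYR, MLANA, MC1R, SLC45A2 and RAB27A.

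Changes were tested with limma on log2(FPKM + 1) over all genes whose mean reached 1 FPKM in some group of the line, with an adjusted p (Benjamini-Hochberg over all of these genes) under 0.01 as the threshold. MLANA did not pass this filter in COLO858, so 9 genes were tested there and 10 in MMACSF. In COLO858 TRPM1, with a DMSO mean of 0.191 FPKM, passed it only through its drug groups. TYR, with a DMSO mean of 0.537 FPKM, passed it only through its 24 h group. From those DMSO levels a fall would have left either gene untested, so for them only a rise could be counted. In COLO858, 4 of 9 rose at 24 h and 0 fell, and of the 12696 genes tested 9.82% passed the threshold, 4.11% upward and 5.71% downward. The median change of the 9 was 0.68, beside 0.06 for all genes. At 48 h, 4 of 9 rose and 0 fell, where 9.47% of genes passed, 4.74% upward and 4.73% downward. The median change was then 0.37 beside −0.01. The genes that rose were DCT, TYRP1, PMEL and TRPM1 at both times. In MMACSF, 2 of 10 passed the threshold at 24 h, DCT upward and SLC45A2 downward, beside 5.83% of the 12599 genes tested (2.22% upward and 3.6% downward). At 48 h, 5 of 10 passed, with DCT, TYR and MLANA higher and MC1R and SLC45A2 lower, beside 8.83% of genes (3.42% upward and 5.41% downward). The median change of the 10 in MMACSF was 0.42 at 24 h and 0.37 at 48 h, beside 0.07 and 0.06 for all genes.

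With 2 libraries a group, the number of calls depended on every library. Leaving out any 1 of the 6 COLO858 libraries left between 1 and 3 genes past the threshold at 24 h and between 2 and 3 at 48 h. Over all genes the calls fell with them, from 1247 to between 114 and 548 at 24 h and from 1202 to between 137 and 383 at 48 h. Leaving out any 1 of the 6 MMACSF libraries left 0 at 24 h and 0 at 48 h by limma, with 6 to 7 genes at an unadjusted p under 0.05 at each time. The calls over all genes fell there from 734 to between 58 and 100 at 24 h and from 1113 to between 114 and 430 at 48 h. The changes of the genes called kept their direction in all of these fits.

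**Figure D2:**
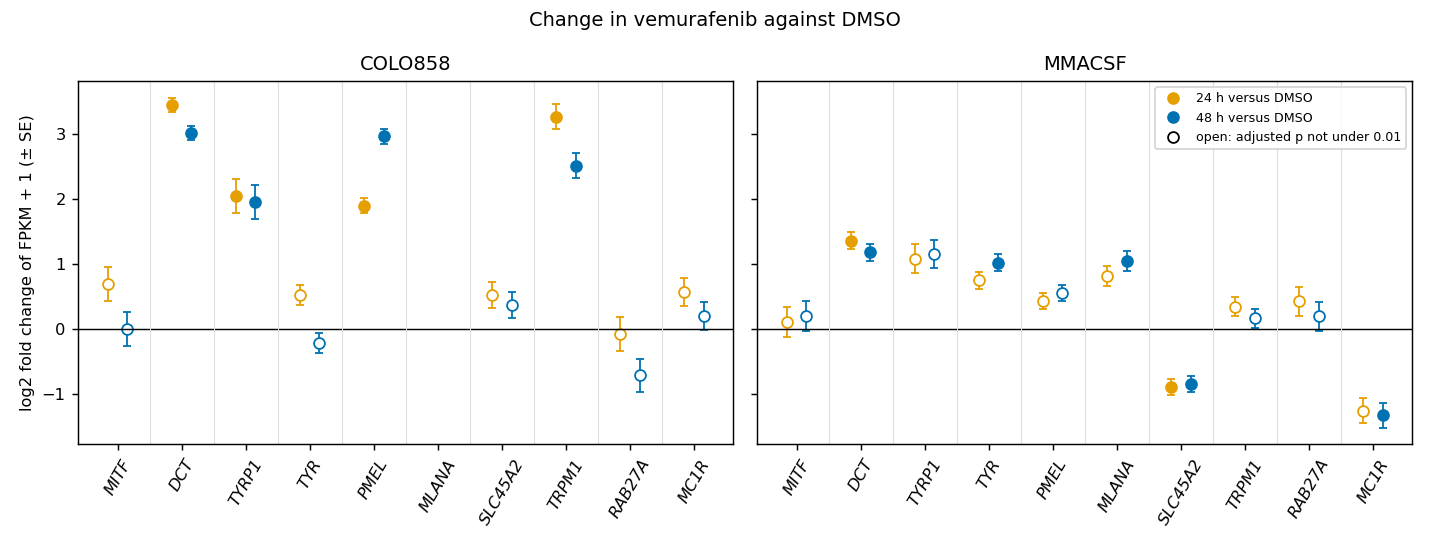
Change of each gene in vemurafenib against DMSO as log2 fold change of FPKM + 1, with its standard error, at 24 h (orange) and 48 h (blue) in COLO858 (left) and MMACSF (right); filled points have an adjusted p under 0.01, and MLANA was not tested in COLO858. DCT is filled at both times in both lines, and MITF is open throughout in these fits, which do not pair libraries by replicate number.

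In these fits, which did not pair libraries by replicate number, MITF itself passed the threshold in no comparison. With the replicate number as a block, its 24 h rise in COLO858 did pass. The labels do not explain what these numbers pair. The MITF gene spans chr3:69788607-70017487 on the plus strand (GRCh37). In COLO858 its level was 56.2 and 79.2 FPKM in the DMSO libraries, 93.0 and 125 at 24 h, and 57.0 and 77.6 at 48 h. Both 24 h libraries lay above both DMSO libraries, and the 48 h libraries fell within the DMSO range. The change was 0.68 ± 0.26 (SE) on the log2 scale at 24 h (95% interval 0.02 to 1.35, adjusted p = 0.117, limma) and −0.0040 at 48 h (−0.67 to 0.66, adjusted p = 0.997). In MMACSF MITF was at 174 and 244 FPKM in DMSO, 195 and 249 at 24 h, and 209 and 268 at 48 h, and the libraries of the 3 groups overlapped. The changes were 0.10 (−0.48 to 0.67) and 0.20 (−0.38 to 0.78), with adjusted p of 0.798 and 0.568. Replicate 2 read higher than replicate 1 in all 6 groups, by 1.27 to 1.41 times. The intervals include this spread and allow changes of up to about 0.67 downward at 48 h in COLO858 and 0.78 upward at 48 h in MMACSF.

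The melanin enzymes did not move as a unit. DCT, or dopachrome tautomerase, converts dopachrome on the way to eumelanin (chr13:95089065-95131936, minus strand, GRCh37). In COLO858 it was at 252 and 283 FPKM in DMSO, 2788 and 3041 at 24 h, and 2139 and 2161 at 48 h. All 4 drug libraries lay far above the DMSO pair, and the 48 h pair lay below the 24 h pair. The means were 10.9 and 8.05 times the DMSO mean, a log2 change of 3.44 ± 0.11 (adjusted p = 0.000283) and 3.01 ± 0.11 (adjusted p = 0.000305). DCT moved from rank 325 among all genes of the line to rank 15 at 24 h and 18 at 48 h. Both calls held when any 1 library was left out. In MMACSF DCT was at 758 and 869 FPKM in DMSO, 1939.95 and 2203 at 24 h, and 1796 and 1861 at 48 h. The drug libraries again lay above the DMSO pair, at 2.55 and 2.25 times its mean. The log2 change was 1.35 ± 0.13 (adjusted p = 0.00387) and 1.17 ± 0.13 (adjusted p = 0.00442), with adjusted p of 0.0123 to 0.0399 when 1 library was left out.

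TYRP1, a tyrosinase-related protein of the eumelanin path (chr9:12685439-12710285, plus strand), was a low gene in both lines. In COLO858 its level was 2.04 and 3.48 FPKM in DMSO, 12.1 and 16.4 at 24 h, and 11.997 and 14.6 at 48 h. The drug libraries did not overlap the DMSO pair, and the log2 change was 2.03 ± 0.26 (adjusted p = 0.00596) at 24 h and 1.95 ± 0.26 (adjusted p = 0.00721) at 48 h. Neither call held when any 1 library was left out, with adjusted p of 0.0159 to 0.0469. In MMACSF TYRP1 was at 1.48 and 2.44 FPKM in DMSO, 4.85 and 5.50 at 24 h, and 4.82 and 6.21 at 48 h. These groups did not overlap either, and the log2 changes of 1.08 and 1.15 missed the threshold, with adjusted p of 0.0263 and 0.0187. An antisense gene, LURAP1L-AS1, shares exon positions with TYRP1, and the strand setting of the counting was not stated.

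TYR, the tyrosinase that starts melanin synthesis (chr11:88911043-89028927, plus strand), was near or below 1 FPKM in COLO858. There it was at 0.385 and 0.690 FPKM in DMSO, 1.21 and 1.15 at 24 h, and 0.356 and 0.282 at 48 h. All but the 24 h pair lay below 1 FPKM, and the log2 changes of 0.51 (adjusted p = 0.0644) and −0.21 (adjusted p = 0.358) did not pass. MMACSF had 178 and 201 FPKM in DMSO, 297 and 338 at 24 h, and 365 and 402 at 48 h. The 3 groups did not overlap. The log2 change was 0.74 ± 0.13 (adjusted p = 0.0174) at 24 h and 1.01 ± 0.13 (adjusted p = 0.00632) at 48 h, where the mean was 2.02 times that in DMSO. The 48 h call was lost when any 1 library was left out (adjusted p from 0.0148 to 0.0524).

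PMEL, which forms the amyloid fibrils of the early melanosome (chr12:56347889-56367101, minus strand), rose at both times in COLO858. It was at 65.9 and 63.3 FPKM in DMSO, 236 and 249 at 24 h, and 485 and 534 at 48 h. The 3 groups were well apart, with means of 3.75 and 7.88 times the DMSO mean. The log2 change was 1.89 ± 0.11 (adjusted p = 0.000963) at 24 h and 2.96 ± 0.11 (adjusted p = 0.00033) at 48 h. The 24 h call was lost without either DMSO library or either 24 h library, with adjusted p up to 0.0129, and the 48 h call held. From 24 to 48 h PMEL had a further change of 1.07 ± 0.11, just short of the threshold (adjusted p = 0.0109). In MMACSF PMEL was already at 7947 and 7940.1 FPKM in DMSO and reached 10313 and 11001 at 24 h and 11366 and 11738 at 48 h. The groups did not overlap, and the log2 changes of 0.42 (adjusted p = 0.0664) and 0.54 (adjusted p = 0.0302) did not pass. CDK2 lies antisense to PMEL and shares exon positions with it.

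MLANA, the melanosomal protein also known as Melan-A (chr9:5890889-5910606, plus strand), stayed between 0.299 and 0.725 FPKM in all 6 COLO858 libraries and was not tested there. In MMACSF it was at 962 and 1126 FPKM in DMSO, 1714 and 1954 at 24 h, and 1979 and 2312 at 48 h. The 3 groups did not overlap. The log2 change was 0.81 ± 0.15 (adjusted p = 0.0204) at 24 h and 1.04 ± 0.15 (adjusted p = 0.00874) at 48 h. With 1 library left out the 48 h adjusted p was 0.0202 to 0.061.

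SLC45A2, a melanosomal membrane transporter (chr5:33944728-33984798, minus strand), fell in MMACSF at both times. It was at 353 and 404 FPKM in DMSO, 193 and 210.2 at 24 h, and 202 and 215 at 48 h. Both DMSO libraries lay above all 4 drug libraries. The log2 change was −0.90 ± 0.12 (adjusted p = 0.00866) and −0.85 ± 0.12 (adjusted p = 0.00817), to 0.533 and 0.551 of the DMSO mean. With 1 library left out the adjusted p was 0.0195 to 0.0607 over both times. In COLO858 it was at 1.97 and 1.83 FPKM in DMSO, 3.90 and 2.53 at 24 h, and 2.89 and 2.61 at 48 h. The changes of 0.52 (adjusted p = 0.115) and 0.37 (adjusted p = 0.233) did not pass.

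TRPM1, a cation channel of melanocytes (chr15:31293268-31453363, minus strand), went from almost no signal to a low level in COLO858. It was at 0.0758 and 0.306 FPKM in DMSO, 10.7 and 10.03 at 24 h, and 4.91 and 6.68 at 48 h. The groups were clearly apart, and the 48 h pair lay below the 24 h pair. The log2 change of FPKM + 1 was 3.26 ± 0.20 (adjusted p = 0.000927) at 24 h and 2.51 ± 0.20 (adjusted p = 0.00177) at 48 h. This scale understates the change of a gene so far below 1 FPKM in DMSO, and the ratios of the means, 54.3 and 30.3, rest on those low DMSO values. The 24 h call was lost without either 24 h library (adjusted p up to 0.0111) and the 48 h call without any 1 of the DMSO or 48 h libraries (up to 0.0156). In MMACSF TRPM1 was at 290.4 and 317 FPKM in DMSO, 340.3 and 433 at 24 h, and 326 and 352 at 48 h, and the changes of 0.34 (adjusted p = 0.173) and 0.16 (adjusted p = 0.482) did not pass.

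The TRPM1 gene also carries the microRNA gene MIR211 on its own strand (chr15:31357235-31357344, GRCh37), in an intron, with no TRPM1 exon overlapped. Its mature product is shown because it is the known microRNA of this locus, with the seed (bases 2 to 8) in capitals, from RefSeq.
hsa-miR-211-5p: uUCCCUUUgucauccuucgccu
The row of MIR211, which was singled out after its values were seen, was listed at 0 in all 6 COLO858 libraries. In MMACSF it was listed at 0 and 25.4 FPKM in DMSO, 85.8 and 136 at 24 h, and 148 and 176 at 48 h. Both drug pairs lay above the DMSO pair. These are mRNA libraries, so the values concern transcript from the locus and not the mature microRNA, and FPKM of so short a gene is imprecise.

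RAB27A, the small GTPase that ties melanosomes to the actin motor MYO5A through MLPH (chr15:55495164-55611311, minus strand), passed the threshold nowhere. In COLO858 it was at 3.03 and 4.07 FPKM in DMSO, 2.74 and 3.88 at 24 h, and 1.28 and 2.30 at 48 h. The 48 h pair lay below the DMSO pair, with a change of −0.72 ± 0.26 (adjusted p = 0.102). Its level in MMACSF was 119.8 and 167 FPKM in DMSO, 169.8 and 211 at 24 h, and 142 and 182 at 48 h, with changes of 0.42 and 0.19 (adjusted p = 0.242 and 0.578). RAB27A shares exon positions with PIGBOS1 on its own strand and with PIGB antisense, so its reads are uncertain.

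MC1R, the receptor for melanocortins that raises cAMP and switches melanocytes to eumelanin (chr16:89978527-89987381, plus strand), fell in MMACSF. It was at 42.7 and 34.9 FPKM in DMSO, 17.7 and 13.6 at 24 h, and 16.1 and 13.4 at 48 h. All 4 drug libraries lay below the DMSO pair, at 0.403 and 0.381 of its mean. The log2 change was −1.26 ± 0.19 at 24 h (adjusted p = 0.012) and −1.33 ± 0.19 at 48 h (adjusted p = 0.00848), so that only the 48 h change passed. Without any 1 library the 48 h adjusted p was 0.0148 to 0.0649. In COLO858 it was at 5.19 and 4.02 FPKM in DMSO, 8.42 and 6.13 at 24 h, and 5.93 and 4.80 at 48 h, and the changes of 0.56 (adjusted p = 0.118) and 0.19 (adjusted p = 0.567) did not pass. MC1R shares exon positions with 3 genes on its own strand, TCF25 among them, so its reads are uncertain.

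Between 24 and 48 h no gene of the set passed the threshold in either line. In COLO858 the count was 0 of 9, with 5 at an unadjusted p under 0.05 by limma, beside 1.38% of all genes called. PMEL alone had a positive change, and 8 of 9 had a negative one. The median change of the 9 was −0.44, beside −0.07 for all genes, which also leaned downward. TYR changed by −0.73 (adjusted p = 0.0613), TRPM1 by −0.75 (adjusted p = 0.103), MITF by −0.69 (adjusted p = 0.234) and DCT by −0.44 (adjusted p = 0.0983). For MMACSF the count was 0 of 10, with 0 at an unadjusted p under 0.05, beside 0.222% of genes called, and the changes ranged from −0.23 (RAB27A) to 0.27 (TYR).

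The responses of the lines were set against each other by testing COLO858 change minus MMACSF change in a limma model of all 12 libraries. The 10 genes here include MLANA, which reached the 1 FPKM filter through MMACSF alone. Its difference therefore mostly restates its change in MMACSF. At 24 h, 5 of 10 genes differed, all toward COLO858, beside 3.71% of the 13595 genes tested, 1.78% in this direction and 1.93% in the other. The difference was 2.92 ± 0.24 for TRPM1 (adjusted p = 0.000389), 2.10 ± 0.16 for DCT (adjusted p = 0.000276) and 1.47 ± 0.12 for PMEL (adjusted p = 0.000424). These 3 held without any 1 of the 12 libraries. For MC1R it was 1.82 ± 0.30 (adjusted p = 0.0077) and for SLC45A2 1.42 ± 0.22 (adjusted p = 0.00665). For both of these the change in COLO858 was positive without passing the threshold, and the change in MMACSF was negative. The MC1R call was lost without any 1 library (adjusted p up to 0.0342), and that of SLC45A2 without any 1 but replicate 2 of COLO858 at 24 h (up to 0.0315).

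At 48 h, 5 of 10 genes differed, 4 toward COLO858 and 1 toward MMACSF, beside 7.48% of all genes (4.19% and 3.3%). PMEL had 2.42 ± 0.12 (adjusted p = 1.5e-05), TRPM1 2.35 ± 0.24 (adjusted p = 0.000517), DCT 1.84 ± 0.16 (adjusted p = 0.000217) and SLC45A2 1.22 ± 0.22 (adjusted p = 0.00799). TYR differed the other way, by −1.23 ± 0.19 (adjusted p = 0.00348), with a rise in MMACSF and levels of at most 0.356 FPKM at 48 h in COLO858. PMEL, TRPM1 and DCT again held without any 1 library. The TYR call was lost without 7 of the 12 libraries (adjusted p up to 0.0191). These were COLO858 DMSO replicate 2, both replicates of MMACSF DMSO, and both replicates of each line at 48 h. That of SLC45A2 was lost without 10 of the 12 (up to 0.0368), that is without any but the COLO858 24 h pair. From 24 to 48 h only PMEL differed, by 0.95 ± 0.12 (adjusted p = 0.0033), 1 of 10 beside 2.96% of genes (2.46% in this direction). The call was lost without 7 of the 12 libraries (adjusted p up to 0.0211). They were all MMACSF drug libraries, both COLO858 24 h libraries and COLO858 48 h replicate 2. For MITF the difference passed neither at 24 h (0.59, 95% interval −0.29 to 1.46) nor at 48 h (−0.20, −1.07 to 0.67), and the intervals allow a difference of more than 1 at each time. Because the constant 1 damps genes near or below 1 FPKM, differences of TYR, SLC45A2 and MC1R, low in COLO858, are on a different part of the scale than those of DCT and PMEL. With a constant of 0.1 FPKM the calls were lost for MC1R and SLC45A2 at 24 h and for TYR and SLC45A2 at 48 h, with differences of 1.95, 1.60, −1.58 and 1.36.

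**Figure D3:**
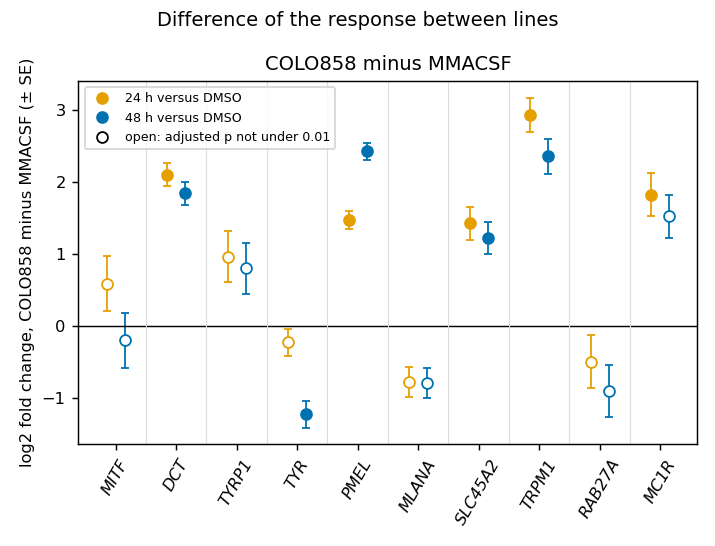
Difference of the response between the lines, COLO858 change minus MMACSF change in log2 of FPKM + 1 with its standard error, at 24 h (orange) and 48 h (blue); filled points have an adjusted p under 0.01. DCT, PMEL, TRPM1 and SLC45A2 are filled above 0 at both times, MC1R at 24 h, and TYR is filled below 0 at 48 h.

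The rest of the pigment machinery was read from 4 lists of other genes, also chosen with earlier results of these data known. Of all genes, COLO858 had 9.82% past the threshold at 24 h and 9.47% at 48 h, while MMACSF had 5.83% and 8.83%, and the counts of the lists stand beside these shares. Of 36 genes of melanosome biogenesis and transport, 32 were tested in COLO858 and 35 in MMACSF. In COLO858, 7 rose and 0 fell at each time, with medians of 0.43 and 0.31 beside 0.06 and −0.01 for all genes. The largest rises past the threshold at 48 h were those of GPNMB, a melanosomal glycoprotein related to PMEL, by 2.45 ± 0.16, of KIF13A, a kinesin that moves cargo to maturing melanosomes, by 2.38 ± 0.16, and of SYTL2, a RAB27A effector with a DMSO mean of 0.243 FPKM, by 2.12 ± 0.17. At 24 h the same genes had 2.33, 2.10 and 0.61, the last short of the threshold (adjusted p = 0.0525). MYO5A, the actin motor of the RAB27A complex, also rose, by 2.06 and then 1.60. Of the 35 tested in MMACSF, 3 rose and 1 fell at 24 h, and 3 rose and 0 fell at 48 h. Of all genes there, 2.22% passed upward and 3.6% downward at 24 h, and 3.42% upward and 5.41% downward at 48 h. The rises of the list at 48 h were led by MLPH, the RAB27A to MYO5A linker, with 2.17 ± 0.11 at 48 h and 1.52 at 24 h. KIF13A followed with 1.26 ± 0.14 and TPCN2, a melanosomal ion channel, with 0.97 ± 0.14. In COLO858 MLPH had 0.98 at 24 h (adjusted p = 0.0134) and rose by 1.26 at 48 h. In MMACSF neither MYO5A (0.54 and 0.64) nor SYTL2 (−0.02 and −0.0055) passed the threshold.

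Of 29 regulators and partners of MITF, 23 were tested in COLO858 and 22 in MMACSF. In COLO858, 3 rose and 3 fell at 24 h, and 4 rose and 3 fell at 48 h, with medians of 0.34 and 0.19 beside 0.06 and −0.01 for all genes. EDNRB, the endothelin receptor of the melanocyte lineage, went from 7.46 and 9.65 FPKM in DMSO to 164 and 193 at 24 h and 126 and 161 at 48 h, a change of 4.24 and then 3.91 ± 0.20. TFAP2A, a transcription factor that acts with MITF on pigment genes, rose by 3.02 and 3.10 ± 0.14, and ZEB2, a melanocyte differentiation factor, by 1.96 and 2.35 ± 0.22. LEF1, the partner of β-catenin at the MITF promoter, fell by 1.69 and 2.05 on the log2 scale. BHLHE40 at −1.23 and ATF4 at −1.06 were the other falls at 48 h. In MMACSF, 4 rose and 1 fell at 24 h, and 5 rose and 1 fell at 48 h, with medians of 0.30 and 0.36 beside 0.07 and 0.06. EDNRB (2.11 ± 0.18), TFAP2A (1.65 ± 0.13) and ZEB2 (1.41 ± 0.21) were again the largest rises past the threshold at 48 h, and BHLHE40 (−1.54 ± 0.11) was the fall. SOX10, the lineage factor upstream of MITF, had 0.65 and 1.00 in COLO858 and 0.33 and 0.59 in MMACSF, none past the threshold. PAX3, another activator of MITF, rose in MMACSF by 1.14 and 1.24. In COLO858 PAX3 was at 7.98 and 9.48 FPKM in DMSO, 11.1 and 11.7 at 24 h, and 16.8 and 13.9 at 48 h.

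Of 32 genes of the melanocortin and cAMP pathway, 24 were tested in each line. In COLO858, 0 rose, 2 fell at 24 h and 4 fell at 48 h, beside 5.71% and 4.73% of all genes that fell. The largest falls past the threshold at 48 h were those of PCSK1, a prohormone convertase (−1.29 ± 0.16), and of the adenylyl cyclases ADCY3 (−1.23 ± 0.19) and ADCY7 (−1.15 ± 0.14). In MMACSF 1 rose and 1 fell at 24 h, and 1 rose and 2 fell at 48 h, shares near the 5.83% and 8.83% of all genes. They were PCSK2, another convertase (1.83 ± 0.14), CREM, a cAMP-responsive transcription factor (−2.41 ± 0.22), and, at 48 h, PDE4B, a cAMP phosphodiesterase (−1.29 ± 0.20). The medians at 48 h were −0.04 in COLO858 and 0.19 in MMACSF, beside −0.01 and 0.06 for all genes.

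Of 47 other genes known as MITF targets, 43 were tested in COLO858 and 47 in MMACSF. In COLO858, 14 rose and 5 fell at 24 h, and 6 rose and 9 fell at 48 h, with a median of 0.41 and then 0.22. Between the times, 35 of the 43 had a negative change, with a median of −0.39 beside −0.07 for all genes. Of the 43, 2 passed the threshold, SCD and SIRPA, both downward, beside 1.38% of all genes, 0.213% downward. The largest rises past the threshold at 48 h were PHACTR1, an actin regulator (3.55 ± 0.16), MBP, or myelin basic protein (2.76 ± 0.13), both below 1 FPKM in DMSO, and BEST1, a chloride channel (2.25 ± 0.12). The largest falls were SCD, the stearoyl-CoA desaturase of lipid synthesis (−3.03 ± 0.18), GMPR, a purine enzyme (−1.87 ± 0.15), and CDK5R1, an activator of CDK5 (−1.58 ± 0.14). In MMACSF, 4 rose and 4 fell at 24 h, and 5 rose and 7 fell at 48 h, beside 5.83% and 8.83% of all genes in either direction. The medians were 0.01 and 0.03 beside 0.07 and 0.06. SEMA6A (1.76 ± 0.13), ST6GALNAC2 (1.23 ± 0.14) and PIR (0.97 ± 0.11) led the rises past the threshold at 48 h. NR4A3 (−2.31 ± 0.15), a nuclear receptor that responds early to stimuli, CEACAM1 (−1.80 ± 0.16), a cell adhesion molecule, and SCD (−1.41 ± 0.17) led the falls.

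With any 1 library left out in turn, the calls at 48 h held in all 6 fits for EDNRB, TFAP2A, PHACTR1 and MBP, 4 of the 18 genes of the lists taken by size in COLO858, and for MLPH, 1 of 16 in MMACSF. For the other 14 and 15 the direction held and the threshold was missed in some or all fits. In COLO858, PHACTR1 and MBP passed the 1 FPKM filter only through their drug groups, with DMSO means of 0.488 and 0.575 FPKM. SYTL2 passed it only through its 48 h group, and PCSK1 only through its DMSO group. For these genes a change in the opposite direction from DMSO could hardly have been counted.

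**Figure D4:**
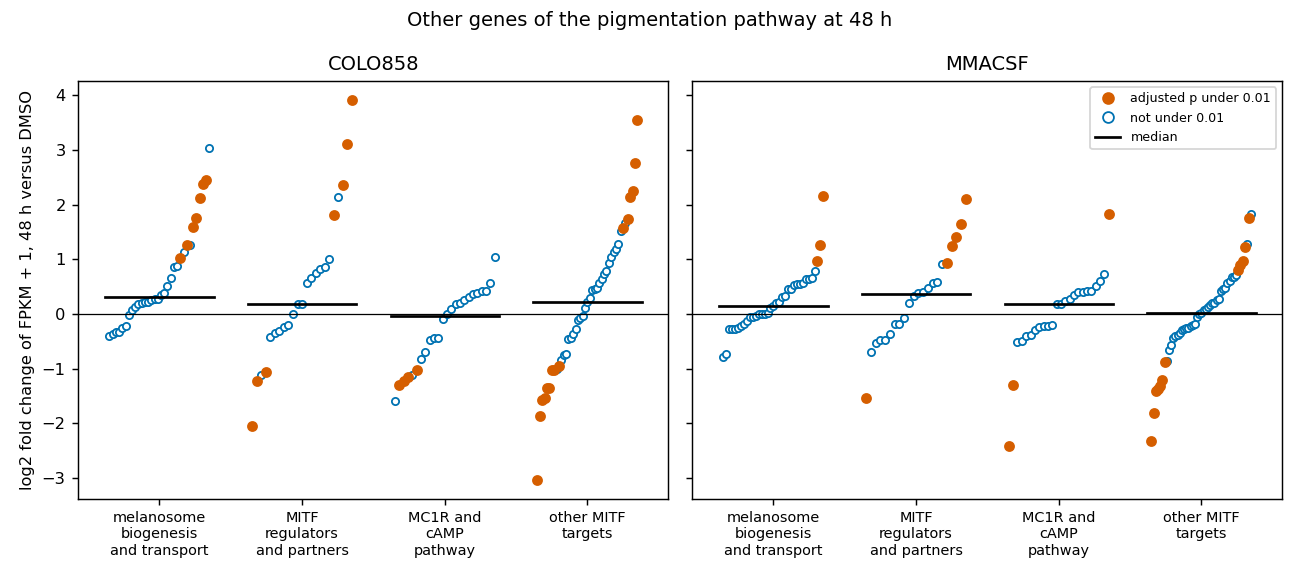
Change at 48 h against DMSO, as log2 fold change of FPKM + 1, of every tested gene of the 4 lists in COLO858 (left) and MMACSF (right), each list sorted by change; filled points have an adjusted p under 0.01 and black bars are list medians. Melanosome genes have filled points above 0 in both lines, and the list of other MITF targets has filled points on both sides.

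Among the 11700 genes tested in both lines, the nearest to MITF in its 4 changes included PEX11A and GBA2, with a root mean square difference of 0.04 and 0.07 on the log2 scale. A pattern of small changes such as that of MITF has many near neighbours. Nearest to DCT were SNAI2, a transcription factor of neural crest cells and melanocytes (0.18), STK32A (0.24) and PIK3R3 (0.35). SNAI2 changed by 3.35 and 2.70 in COLO858 and by 1.40 and 1.00 in MMACSF, beside 3.44, 3.01, 1.35 and 1.17 for DCT. NGFR, the neural crest receptor on which the study centres, was at 2.89 and 2.82 FPKM in DMSO, 1.96 and 1.36 at 24 h, and 49.9 and 39.8 at 48 h in COLO858. In MMACSF its libraries were between 2.35 and 3.86 FPKM in DMSO and between 0.357 and 0.861 in the drug. In COLO858 the 48 h libraries thus had the highest NGFR and PMEL levels together, with DCT below its 24 h level and MITF within its DMSO range.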

How the data were processed

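Polyadenylated RNA of 12 cultures was sequenced as stranded libraries with single reads. The authors mapped reads to hg19 with TopHat and obtained gene values with Cuffdiff, per the labels and the paper. Program versions, annotation, strand setting and library scaling are not given in the sources used here. The deposited values are FPKM, with 1 table per line. The 12 columns all entered, with 0 omitted. They are described as normalized counts, and FPKM was settled on from their values and the methods. Read depth is unknown, so no interval for counting error could be given. FPKM summed to 670310 to 1013038 per library, and the MIR4461 row made up 14.1% to 43.4% of that sum.

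Each line was fitted with limma 3.58.1 in R 4.3.3 on log2(FPKM + 1), with its 3 groups as terms and moderated variances that follow a trend with the mean. A gene was tested if its mean reached 1 FPKM in some group, two-sided, with Benjamini-Hochberg adjustment over all of them and a threshold of 0.01. Changes and standard errors are on this log2 scale, and means ± SD are FPKM. The scale understates the change of genes near or below 1 FPKM. Differences between lines are an interaction over all 12 libraries. The scripts were tested on simulated data. The labels say that plates were seeded in replicate and nothing more, so p-values measure the spread between these libraries, which may be technical.

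The 10 genes were taken by name, and the members and lists were chosen with earlier results of these data known. The 4 lists were written from general knowledge. From each list the text names up to 3 genes with the largest rise and up to 3 with the largest fall past the threshold at 48 h in each line. Beyond that rule, MYO5A, MLPH in COLO858, SOX10, PAX3, SIRPA and MIR211 were named after their values were seen. Likeness to MITF and DCT was the root mean square difference over 4 changes, for the 3 nearest genes, of which 1 is not reported here. Gene positions are those of GENCODE lifted to GRCh37, and exon overlaps come from it. Promoters and the microRNA come from RefSeq tables of GRCh38.p14, and positions of the builds were not mixed. Motifs were searched on both strands.

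Alternatives were a constant of 0.1 FPKM, no minimum and a minimum of 10 FPKM, a replicate block, median-ratio rescaling, no trend, only the groups compared, no small RNA genes, a threshold of 0.05, and leaving out each library.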

Additional observations from a re-analysis of the deposited data

Results flagged for a closer look

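The change in drug differed between the lines, by the test of the difference itself (limma, COLO858 minus MMACSF, 12 libraries), in 11 instances. At 24 h against DMSO the difference was 2.10 for DCT, 1.47 for PMEL, 2.92 for TRPM1, 1.82 for MC1R and 1.42 for SLC45A2. At 48 h against DMSO it was 1.84 for DCT, 2.42 for PMEL, 2.35 for TRPM1, 1.22 for SLC45A2 and −1.23 for TYR. From 24 to 48 h it was 0.95 for PMEL. TRPM1, SLC45A2, TYR and MC1R are low in COLO858, so their differences set a change near the foot of the scale against a change of an abundant gene. With 2 libraries a group no single library could be tested as an outlier.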

How the results depend on the processing

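Besides leaving out libraries, 9 other settings were tried, and with them the direction turned 3 times, each for a value short of the threshold. MITF at 48 h in COLO858 was 0.000936 with median-ratio rescaling. With a constant of 0.1 FPKM the difference between lines was 0.30 for TYR at 24 h and 0.31 for MLANA from 24 to 48 h. The number of the 10 genes past the threshold moved as follows, with the calls over all genes beside it. With no minimum it was 1 in MMACSF at 24 h and 2 at 48 h, beside 523 and 842. Without a variance trend it was 1 and 2, beside 687 and 997. With only the groups compared in the fit it was 0 at both times by limma (7 at an unadjusted p under 0.05 at each). The calls over all genes were 235 and 576. For the difference it was then 3 at 24 h, beside 173. From 24 to 48 h it was 0 (2 at an unadjusted p under 0.05, limma), beside 196. With a constant of 0.1 FPKM it was 3 for the difference at 24 h and 3 at 48 h, beside 336 and 844. Without small RNA genes it was 5 in MMACSF at 24 h and 1 in COLO858 from 24 to 48 h, beside 1244 and 348. With median-ratio rescaling it was 1 in COLO858 from 24 to 48 h and 2 for the difference between these times, beside 263 and 499. With a threshold of 0.05 it was 6 in MMACSF at 24 h, 1 in COLO858 from 24 to 48 h, and 2 for that difference. The calls over all genes were then 2561, 809 and 864. The cause was not tested. The rescaling shifted the median of all genes by at most 0.07. A minimum of 10 FPKM left all counts of the 10 genes within 1.5 times, with fewer genes tested.

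Leaving out 1 library at a time gave 1 to 3 genes in COLO858 at 24 h, 2 to 3 at 48 h and 0 from 24 to 48 h (3 to 6 at an unadjusted p under 0.05, limma). In MMACSF it gave 0 in each comparison (6 to 7 at 24 h, 6 to 7 at 48 h and 0 between them at an unadjusted p under 0.05). For the differences it gave 3 to 4 at 24 h, 3 to 5 at 48 h and 0 to 1 from 24 to 48 h. Small changes turned direction. MITF ranged from −0.25 to 0.24 at 48 h in COLO858, and in MMACSF from −0.15 to 0.34 at 24 h, from −0.044 to 0.44 at 48 h and from −0.078 to 0.28 between them. RAB27A ranged from −0.27 to 0.11 at 24 h in COLO858 and from −0.050 to 0.42 at 48 h in MMACSF. From 24 to 48 h, TYRP1 ranged from −0.29 to 0.12 and SLC45A2 from −0.39 to 0.087 in COLO858. In MMACSF, TYRP1 ranged from −0.084 to 0.22, MC1R from −0.25 to 0.11 and SLC45A2 from −0.012 to 0.11. The difference of MITF at 48 h ranged from −0.45 to 0.041. From 24 to 48 h the difference ranged from −0.36 to 0.045 for TYRP1, from −0.19 to 0.16 for MLANA and from −0.43 to 0.038 for SLC45A2.

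The groups share replicate numbers that the labels do not explain. Deviations of same-numbered libraries correlated at 0.196 to 0.211 over genes in COLO858 and at 0.0628 to 0.113 in MMACSF, and without small RNA genes at 0.753 to 0.779 and 0.590 to 0.673. With the replicate number as a block, 8 of 10 genes passed in MMACSF at 24 h, 3 of 9 in COLO858 from 24 to 48 h, 9 of 10 for the difference at 24 h, 9 at 48 h and 3 between these times. MITF at 24 h in COLO858 then had an adjusted p of 0.000567. Over all genes, the block moved the calls in COLO858 from 1247 to 5719 at 24 h, from 1202 to 5549 at 48 h and from 175 to 2280 between them. In MMACSF it moved them from 734 to 3284 and from 1113 to 3790, and the differences from 505 to 2396, 1017 to 3434 and 403 to 1774. No call of a member was lost with it.

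Counts over all genes moved by over 1.5 times elsewhere too. Leaving out 1 library at a time gave 114 to 548, 137 to 383 and 18 to 43 calls in COLO858, 58 to 100, 114 to 430 and 15 to 46 in MMACSF, and 212 to 399, 558 to 896 and 184 to 326 for the differences. With only the groups compared, calls were 679, 493 and 35 in COLO858, 235 and 576 in MMACSF, and 173, 649 and 196 for the differences. With a threshold of 0.05 they were 3275, 3298 and 809, then 2561, 3038 and 53, then 1227, 2124 and 864. Without small RNA genes 348 were called in COLO858 from 24 to 48 h, and 1244, 1704 and 17 in MMACSF. With no minimum 86 were called in COLO858 from 24 to 48 h. With a constant of 0.1 FPKM 336 were called for the difference at 24 h, and with a minimum of 10 FPKM 831 and 779 in COLO858 and 275 for that difference. Read depth, which would set the precision of the low genes, is unknown.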

Other observations

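Among pigment genes outside the 10, OCA2, GPR143, SLC24A5 and IRF4 were present in MMACSF and near or below 1 FPKM in COLO858. Others, such as GPNMB and MYO5A, were well above 1 FPKM in both lines. The genes given below were singled out after their values were seen, and no test between lines was made since the tables were deposited separately. OCA2, a melanosomal ion transport protein, was between 42.3 and 50.5 FPKM in the 6 MMACSF libraries and at most 0.127 in COLO858. GPR143, the melanosomal receptor of ocular albinism, was between 113.9 and 158 FPKM in MMACSF and at most 0.234 in COLO858. SLC24A5, a melanosomal exchanger, was between 136 and 257 FPKM in MMACSF and at most 0.680 in COLO858. IRF4, a transcription factor that acts with MITF on TYR, was at 23.9 and 30.0 FPKM in the DMSO libraries of MMACSF, 54.1 and 66.3 at 24 h, and 45.9 and 57.1 at 48 h. In COLO858 it was at 0.0610 and 0.157 FPKM in DMSO, 0.733 and 1.04 at 24 h, and 0.166 and 0.144 at 48 h. KIT, the receptor for the growth factor KITLG in melanocytes, was listed at 0 in all 6 MMACSF libraries and was between 0.151 and 1.11 FPKM in COLO858, highest at 48 h. S100B, a calcium-binding protein of melanocytes and glia, was at 113.1 and 112.9 FPKM in the DMSO libraries of COLO858, 444 and 468 at 24 h, and 996 and 1038 at 48 h. In MMACSF it was at 857 and 782, 769.7 and 765, and 706 and 640.04 FPKM in the same groups.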
